A study of Mus musculus with 2 samples.

Results

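Fbxl10 is the older name of Kdm2b, and the 10 genes described here are Fbxl10 and the genes of the proteins it works with in a variant Polycomb repressive complex 1 (PRC1): Bcor, Bcorl1, Pcgf1, Rnf2, Ring1, Rybp, Yaf2, Skp1a and Usp7. They were taken by name and not by a cut on their signals, but with earlier results of these data known. In a table of 19086 named genes, 9 of the 10 had a probe set, under the current symbol or an older one (Nspc1 for Pcgf1, Skp1a for Skp1). Ring1 was not analysed here, since no probe set of the table used here carried its name.

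Transcripts were measured in the mouse preadipocyte line 3T3-L1, which becomes fat cells under a hormone cocktail. The empty vector sample carried a retroviral vector without an insert, and the other sample, labelled Fbxl10 overexpression, carried Fbxl10 cloned into pMXs-puro, whose LTR promoter is called weak in the labels. RNA of both came from day 2 of differentiation, in medium that held 10% fetal bovine serum and, from day 0, 0.5 mM isobutylmethylxanthine, 0.25 µM dexamethasone and 1 µg/ml insulin. Each was hybridised to 1 Affymetrix mouse array, so no difference below has a replicate check, a standard error or a test, and the number of arrays limits every value.

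Polycomb complexes keep developmental genes silent. Every PRC1 is built on a RING protein (Rnf2 or Ring1) joined to a PCGF protein, and it attaches ubiquitin to histone H2A. In the variant complex with Pcgf1, known as PRC1.1, Fbxl10 binds unmethylated CpG-rich DNA through its CXXC zinc finger and so brings the complex to CpG islands, Bcor or Bcorl1 bridges the RING-PCGF core to Fbxl10 and Skp1, and Rybp or Yaf2 stimulates the ligase.

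Signals are scanner intensities on a linear scale, with a detection threshold of 19.4, the median of all signals on both arrays. A log2 difference is that of the library labelled Fbxl10 overexpression minus that of the empty vector library, so that 1 stands for 2-fold higher, and a gene is represented by its brightest probe set. The 9 genes had 23 probe sets. Of these, 18 reached the threshold on both arrays, 1 on 1 array and 4 on neither. At the 2-fold rule, 1 of the 9 genes (Bcor) was higher and 0 were lower. The background over all 11326 detected genes was 9.75% higher and 5.33% lower by at least 2-fold, so the members' counts lie near it. With dim signals raised to the threshold the members' counts were again 1 and 0, beside 6.75% and 4.26% of all genes. Each member's brightest probe set reached the threshold on both arrays, so this setting could not change the members' counts. The median difference of the members was 0.02, and that of all detected genes was 0.06. Centring on the hybridization spike-ins, which are control transcripts meant to be added in equal amounts, moved both medians to -0.20 and -0.16.

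**Figure D1:**
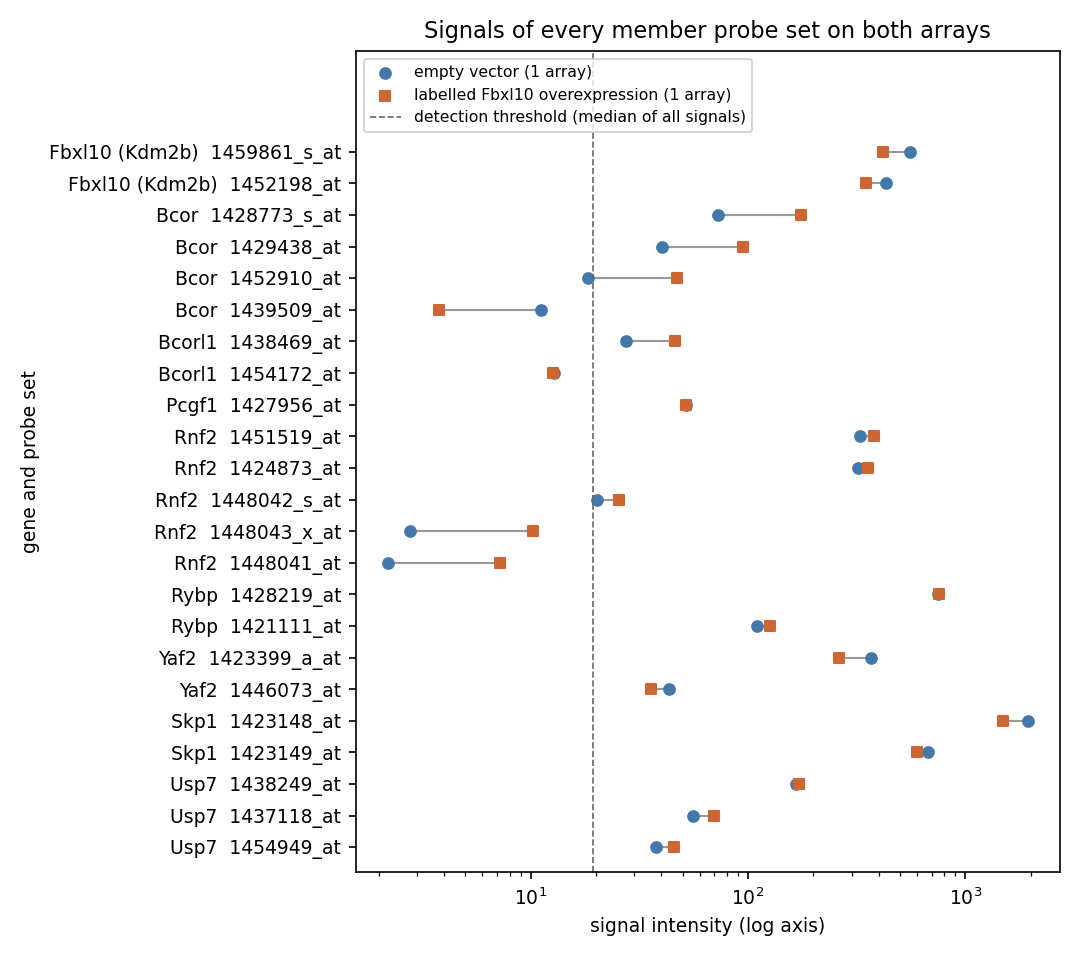
Signal of each of the 23 probe sets on the empty vector array (circles) and on the array labelled Fbxl10 overexpression (squares), on a log axis, with 1 array per group and the detection threshold of 19.4 dashed. Among probe sets that reach the threshold on an array, the 3 of Bcor show the widest gaps to the right, 2 dim Rnf2 probe sets with wider gaps lie under it on both arrays, and both Fbxl10 probe sets lie slightly to the left in the library labelled for it.

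Fbxl10 encodes a histone demethylase with a JmjC domain, a CXXC finger, an F-box and leucine-rich repeats. Its own transcript went against the label. Probe set 1459861_s_at read 558.5 with the empty vector and 419.6 under the Fbxl10 label. That is 1.33-fold lower, a log2 difference of -0.41. Probe set 1452198_at read 431.6 and 350.9, 1.23-fold lower (-0.30). Both lay below 0 under every scaling tried, with the brighter of them between -0.63 and -0.34. Median and spike-in centring lower every value, so they could not bring either above 0. The authors' deposited table gives log2 ratios of -0.4 and -0.2. Between probe sets of 1 gene the SD was 0.281 at mean signals of 100 to 500, which says nothing of how cultures differ. The brighter probe set exceeds it under every scaling. The dimmer one exceeds it as deposited but not with quantile normalization (-0.27) or with the brightness trend removed (-0.24). Among detected genes, 19.7% were as low as Fbxl10 or lower. Where the probe sets lie on the transcript is not given in the sources used here. One that lies outside the cloned part would read the cells' own Fbxl10 alone and would say nothing of the construct. The label is not borne out by either probe set, and each direction below is that of the libraries as labelled.

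The mouse gene has 2 groups of RefSeq transcript starts, 88.1 to 88.7 kb apart, and the transcripts from the internal one are known for a short protein form without the JmjC domain. Which form each probe set reads is not given in the sources used here. A promoter of each group is shown because the CXXC finger of the protein reads CpG, and the capitals mark each CG (GRCm38.p6, minus strand, chr5:122989050-122989349 for the upstream start and chr5:122900301-122900600 for the internal one):
Kdm2b upstream start: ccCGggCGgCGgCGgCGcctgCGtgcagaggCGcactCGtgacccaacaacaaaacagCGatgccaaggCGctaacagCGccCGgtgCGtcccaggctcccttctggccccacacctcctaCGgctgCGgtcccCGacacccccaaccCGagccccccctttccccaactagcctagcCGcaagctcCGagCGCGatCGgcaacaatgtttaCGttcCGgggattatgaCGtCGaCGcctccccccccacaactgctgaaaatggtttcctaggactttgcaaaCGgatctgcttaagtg
Kdm2b internal start: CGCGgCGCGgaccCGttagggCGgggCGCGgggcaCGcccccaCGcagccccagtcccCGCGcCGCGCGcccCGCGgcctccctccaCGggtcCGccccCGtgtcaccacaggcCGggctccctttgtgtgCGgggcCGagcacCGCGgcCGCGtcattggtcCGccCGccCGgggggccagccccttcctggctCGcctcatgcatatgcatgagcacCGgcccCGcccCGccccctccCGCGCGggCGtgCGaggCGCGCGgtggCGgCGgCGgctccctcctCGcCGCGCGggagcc
The upstream window shown holds 28 CG dinucleotides and the internal one 49. The other upstream window, chr5:122988458-122988757, holds 18, a number that 29.7% of windows reach, and the other internal one 47. Of 32851 RefSeq mouse promoter windows of 300 bases, 14.2% hold at least 28 and 1.02% at least 49, and the median is 7. CG reads the same on both strands. This count is a property of the reference sequence and not of the samples.

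The corepressors stood highest. Bcor, first known as a corepressor of Bcl6 and the scaffold between the RING-PCGF core and Fbxl10, was higher at each of its 3 probe sets that reached the threshold. Probe set 1428773_s_at read 73.0 with the empty vector and 175.4 under the Fbxl10 label, 2.40-fold higher (log2 difference 1.26). Probe set 1429438_at read 40.3 and 94.8, 2.35-fold higher (1.23). Probe set 1452910_at read 18.3, under the threshold, and 47.3, which is at least 2.44-fold higher over the threshold. The authors' deposited table gives log2 ratios of 1.1, 1.3 and 1.2 for the 3. A further probe set, 1439509_at, is listed under a RIKEN name that RefSeq gives as a synonym of Bcor, and it was under the threshold on both arrays (11.2 and 3.8), so it has no fold. Under the scalings tried the brightest probe set lay between 1.04 and 1.26, past 2-fold in each. Among detected genes, 6.07% were as high as Bcor or higher. Of the 2223 genes with at least 3 detected probe sets, 2.88% were at least 2-fold higher at all of them after dim signals had been raised to the threshold, and Bcor was among these. Bcor has 3 only by counting 1452910_at, which reached the threshold under the Fbxl10 label alone. This share is therefore a description and no support for the difference.

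Bcorl1, the paralog of Bcor that takes the same place in the complex, moved less and stayed within 2-fold. Of all detected genes, 14.1% were as high as Bcorl1 or higher. Probe set 1438469_at read 27.4 and 46.4, 1.69-fold higher (log2 difference 0.76), between 0.52 and 0.76 over the scalings. Its other probe set, 1454172_at, was under the threshold on both arrays (12.8 and 12.7). With the signals so near the threshold, the SD between probe sets of 1 gene was 0.359 for mean signals under 100. The authors' deposited table gives a log2 ratio of 0.8 for the brighter probe set. The promoters of both corepressor genes are shown because they are the members with the highest differences, with each CG in capitals (GRCm38.p6, chrX:12160297-12160596 on the minus strand for Bcor and chrX:48341108-48341407 on the plus strand for Bcorl1):
Bcor: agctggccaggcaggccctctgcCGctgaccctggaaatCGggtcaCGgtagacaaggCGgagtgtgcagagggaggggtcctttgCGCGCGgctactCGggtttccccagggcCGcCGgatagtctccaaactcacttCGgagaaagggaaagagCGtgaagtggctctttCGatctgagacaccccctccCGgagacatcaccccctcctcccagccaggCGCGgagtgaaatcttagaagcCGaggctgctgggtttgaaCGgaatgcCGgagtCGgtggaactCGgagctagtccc
Bcorl1: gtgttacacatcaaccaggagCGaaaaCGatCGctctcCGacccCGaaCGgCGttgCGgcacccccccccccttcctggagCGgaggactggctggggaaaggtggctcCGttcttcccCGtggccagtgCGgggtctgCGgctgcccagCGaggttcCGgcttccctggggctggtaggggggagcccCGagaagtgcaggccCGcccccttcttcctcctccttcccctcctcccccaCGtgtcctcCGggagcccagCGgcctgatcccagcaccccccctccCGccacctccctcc
Each window holds 21 CG dinucleotides, a number that 24.8% of all windows reach. Of the members, 7 had promoter windows in the reference table used here, 11 in all, with 18 to 63 CG each. Both Bcor windows and the Bcorl1 window hold 21, fewer than the single windows of Rnf2 (30), Skp1 (34), Ring1 (37) and Usp7 (63).

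**Figure D2:**
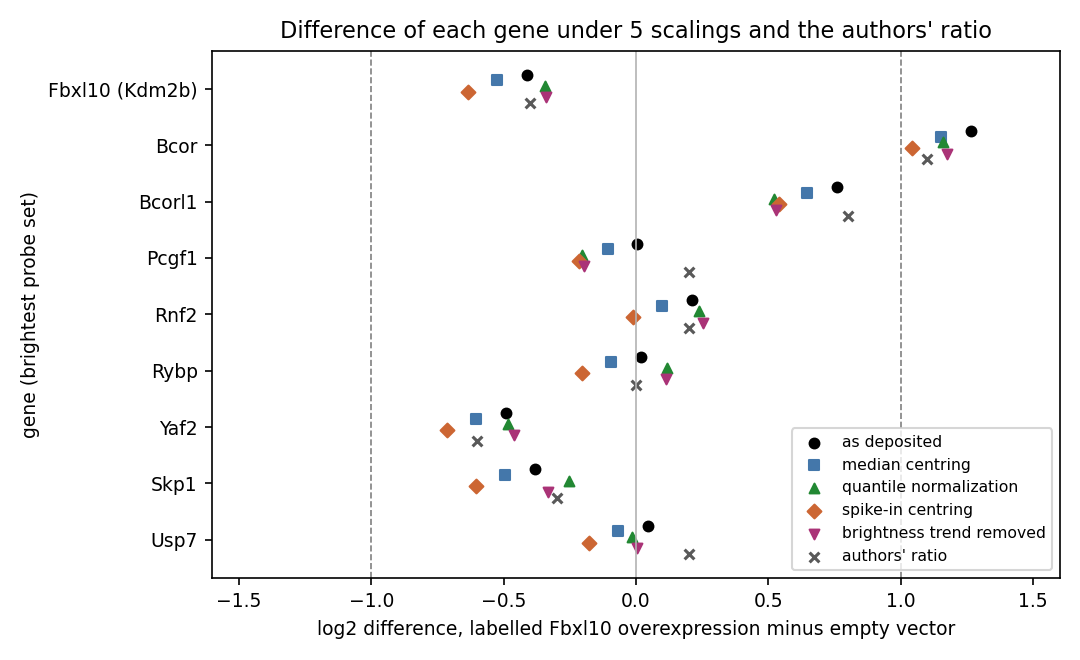
Log2 difference of the brightest probe set of each of the 9 genes with the signals as deposited, under 4 other scalings and by the authors' ratio, with 2-fold dashed. Bcor lies past 2-fold in each, Fbxl10, Yaf2 and Skp1 lie below 0 in each, and Pcgf1, Rnf2, Rybp and Usp7 lie close to 0.

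The measured part of the catalytic core, Rnf2 and Pcgf1, differed little between the libraries, and Ring1 was not analysed. Rnf2, the RING ligase also called Ring1B, read 327.1 and 378.6 at probe set 1451519_at (log2 difference 0.21). It read 322.5 and 356.6 at 1424873_at (0.15). A dimmer probe set, 1448042_s_at, read 20.1 and 25.5 (0.34). Both bright probe sets were above 0 as deposited and slightly below 0 with spike-in centring (-0.01 and -0.08). The remaining probe sets, 1448043_x_at and 1448041_at, read 2.8 and 2.2 with the empty vector and 10.2 and 7.2 under the Fbxl10 label, all below the threshold, so neither has a fold. Pcgf1, the PCGF protein that defines the complex, had 1 probe set, 1427956_at, which read 51.6 and 51.8 (log2 difference 0.01). The authors' deposited table gives 0.2 for it, and the other scalings gave values down to -0.22, so its direction is not settled.

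Rybp and Yaf2 are paralogs that stimulate the ligase and compete with the CBX proteins of canonical PRC1, and they did not move together. Rybp read 750.5 and 760.3 at probe set 1428219_at (log2 difference 0.02) and 109.9 and 126.7 at 1421111_at (0.21), while the authors' deposited table gives 0 for both. Yaf2 was lower at both of its probe sets. Probe set 1423399_a_at read 367.5 and 261.5, 1.41-fold lower (-0.49), and 1446073_at read 43.3 and 35.9, 1.21-fold lower (-0.27). Over the scalings the brighter Yaf2 probe set lay between -0.71 and -0.46, and the brighter Rybp one between -0.20 and 0.12. Yaf2 was the lowest of the 9 genes, and 16.2% of detected genes were as low or lower. The difference between the paralogs was not tested, since there is 1 array per group.

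Of the ubiquitin factors, Skp1 was lower and Usp7 was close to 0 by the brightest probe set. By the median over probe sets they were at -0.28 and 0.27. Skp1 (Skp1a in the table), the adaptor that holds F-box proteins in SCF ubiquitin ligases and binds the F-box of Fbxl10, read 1938 with the empty vector and 1487 under the Fbxl10 label at probe set 1423148_at. This is 1.30-fold lower (log2 difference -0.38). It read 675 and 597.6 at 1423149_at (-0.18), which fell to -0.08 with quantile normalization and -0.09 with the brightness trend removed. Over the scalings the brighter probe set lay between -0.60 and -0.25, and for genes with a mean signal of 500 or more the SD between probe sets was 0.198. Usp7, a deubiquitinase that stabilises Mdm2 and is found with the complex, read 167.2 and 172.3 at 1438249_at (0.04). It read 56.0 and 69.5 at 1437118_at (0.31) and 37.8 and 45.7 at 1454949_at (0.27). The authors' deposited table gives -0.1 for 1437118_at, where the signals give a positive difference, and 0.2 for the other 2.

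Where a member had several probe sets that reached the threshold on both arrays, these pointed the same way as deposited. This held for 7 of 7 members and for 67.9% of the 4615 such genes in the table. With median centring the probe sets of Rybp (-0.09 and 0.09) and of Usp7 (-0.07, 0.20 and 0.16) pointed both ways. The share over all genes was not computed under other scalings. Of the 18 probe sets measured on both arrays, 12 were above 0 and 6 below. Under every scaling, 5 stayed above 0, namely both of Bcor, that of Bcorl1 and the dimmer pair of Usp7. All 6 of Fbxl10, Yaf2 and Skp1 stayed below 0. Median and spike-in centring lower every probe set, by 0.113 and 0.221. Values below 0 could therefore not cross 0 there, whereas small values above 0 had to. The share of all probe sets that kept their sign is not given here, so these counts are descriptions. At this level 2 probe sets, both of Bcor, were at least 2-fold higher and 0 lower, against 6.94% and 3.66% of all probe sets measured on both arrays.

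**Figure D3:**
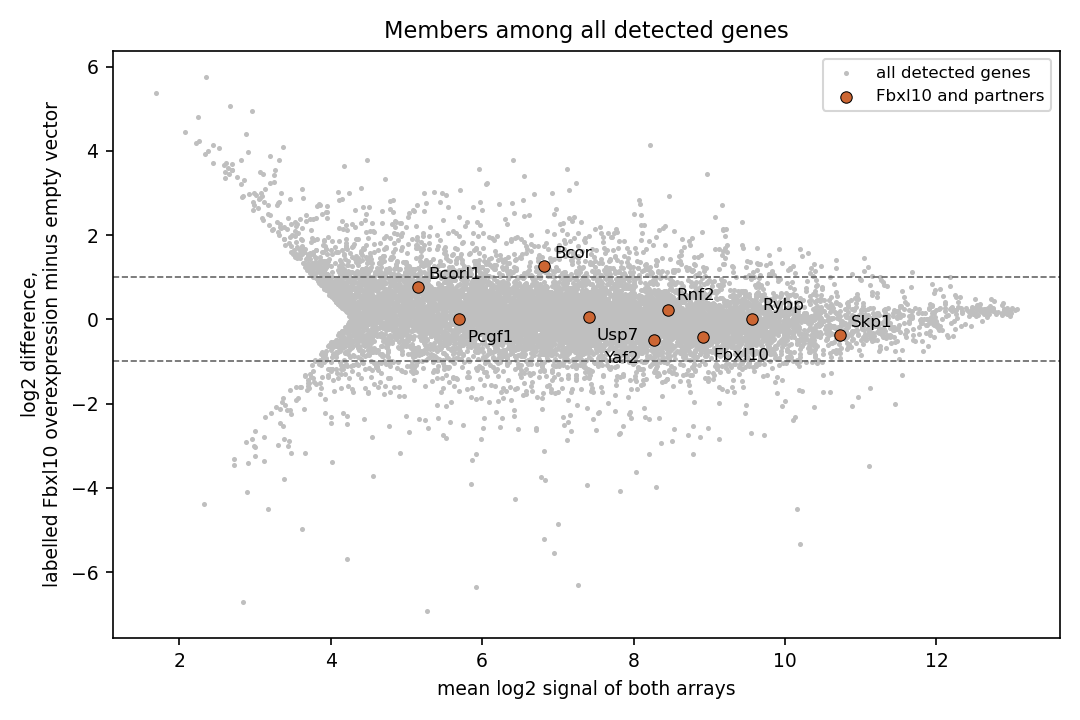
Log2 difference against mean log2 signal for the 11326 detected genes (grey) with the 9 members marked, 2-fold dashed. Bcor is the 1 member outside the 2-fold lines, and the others lie between them.

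Related genes were set beside the members in 8 lists. Of 24 detected subunits of other PRC1 complexes, 0 were at least 2-fold higher and 1 lower, with a median of -0.15. The lower one was Pcgf5, a PCGF protein of another variant complex (77.1 and 38.3, 2.01-fold). Its other probe set was at -0.97, so that by the median over probe sets 0 were at least 2-fold lower. By that median 1 gene of the list, Cbx2, was at least 2-fold higher (1.01). Its brighter probe set was at 0.12, and the median rests on 1422059_at, at 1.89. That probe set read 5.3 with the empty vector, under the threshold, and 19.7 under the Fbxl10 label, just over it. With a signal of at least 100 required, 0 were at least 2-fold lower. Scmh1, a homolog of the fly Polycomb protein Scm, was highest at 0.80, followed by Phc1 at 0.69, and L3mbtl2 was second lowest at -0.81. Of 11 detected PRC2 genes, with a median of -0.17, only Phf19 was past 2-fold lower as deposited, with 1 signal under the threshold and a bound of at least 1.20-fold. With dim signals raised to the threshold 0 were past 2-fold, and Ezh1 (0.61) and Ezh2 (-0.34) were at the ends. The 9 genes that remove or control H2A ubiquitin lay within 2-fold, from Foxk2 at -0.60 to the deubiquitinase Mysm1 at 0.36, with a median of -0.02. The dimmest probe sets of Foxk2 went the other way, up to 0.71.

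For the other CXXC finger genes the median was 0.31, or 0.09 after spike-in centring. Of the 10 detected, 8 were above 0, beside 6117 of all 11326 detected genes, and 0 were past 2-fold in either direction. Kdm2a, the closest paralog of Fbxl10, read 381.3 and 459.6 at its brightest probe set (log2 difference 0.27) and 200.7 and 175.5 at 1435329_at (-0.19). Its probe sets thus pointed both ways. At the brightest probe set Cxxc4 was highest (35.8 and 61.5, 0.78), but its other probe set, 1456811_at, went the other way, from 36.3 to 17.1, under the threshold. Kmt2a came next at 0.57, and Dnmt1 was lowest at -0.14. By the authors' deposited ratio 1 of the list was at least 2-fold higher. Of 12 SCF ligase genes, 10 were below 0 by the brightest probe set and 7 by the median over probe sets, beside 5203 and 4950 of all 11326 detected genes. Their median was -0.19 (-0.41 with spike-in centring). The F-box protein cyclin F (Ccnf), a gene of the dividing cell, was 2.26-fold lower, and Cacybp, which binds Skp1, was at -0.94. The F-box protein Btrc was above 0, at 0.26.

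Around Usp7, 0 of 7 detected partners and substrates were past 2-fold, with Mdm4 (0.46) and Trp53 (0.46) highest and Uhrf1 (-0.82) and Gmps (-0.29) lowest. Of 6 genes listed around Bcor, 0 were past 2-fold by the signals and 2 were at least 2-fold higher by the authors' deposited ratio. Mllt3, whose protein binds BCOR, was highest at 0.89. Bcl6 was lowest at -0.29, with a dimmer probe set at 0.14. The 6 genes listed here as targets of Fbxl10 were chosen with earlier results of these data known, so they are not an independent list. They went both ways, with 1 at least 2-fold higher (Cdkn2b, 1.76) and 1 at least 2-fold lower (Pparg, also an adipocyte marker below, -2.60). With spike-in centring 3 were at least 2-fold lower, since Cdk1 (-0.87 as deposited) and Uhrf1 then passed that size. Cdkn2a was at 0.42. Counts in lists of this size are descriptions of 2 libraries.

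**Figure D4:**
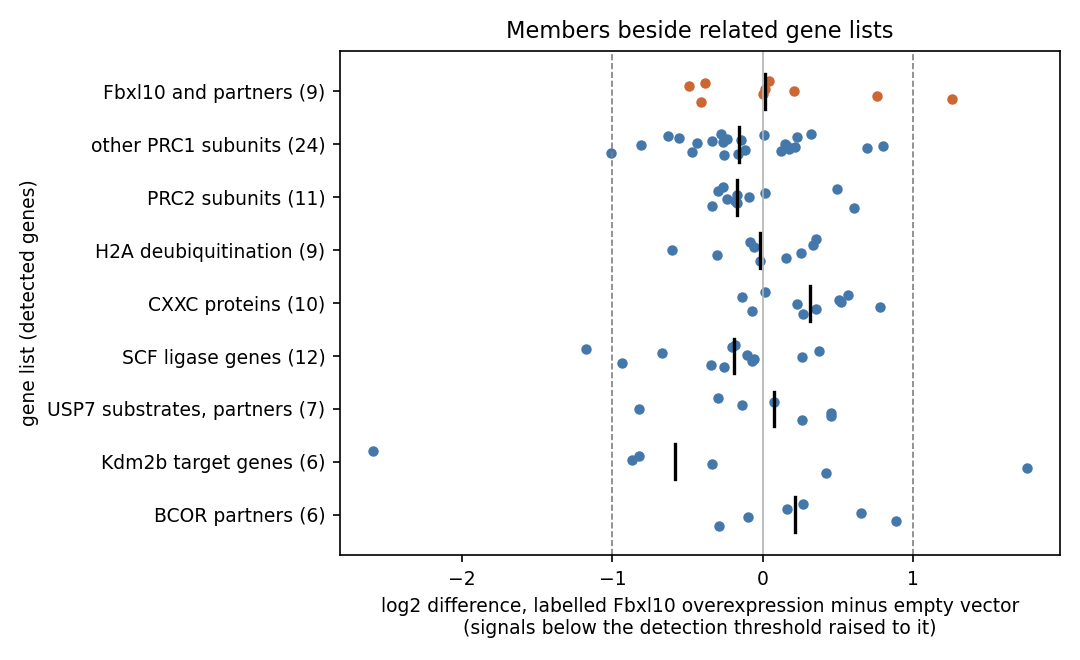
Log2 difference of each detected gene in the member list and in 8 related lists, with signals under 19.4 set to 19.4, list medians as black bars and 2-fold dashed. Most points lie within 2-fold, and the medians lie between -0.58 for the genes listed as Fbxl10 targets and 0.31 for the CXXC genes.

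The 2 libraries differed in transcripts that mark cell types. All 7 preadipocyte and fibroblast markers were detected, with a summed signal of 19290 with the empty vector and 28252 under the Fbxl10 label. The 5 adipocyte markers with a probe set summed to 15465 and 1767. Of 13 markers of leukocytes, endothelium, epithelium and muscle, 2 reached the threshold on an array (Cd68 and Des), at most at 26.8. In bulk samples fewer cells of a type and less RNA per cell cannot be told apart, and the part of the difference in adipocyte transcripts in the values of Bcor, Yaf2, Skp1 and Fbxl10 was not tested.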

How the data were processed

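Total RNA of 2 samples of 3T3-L1 cells was labelled with biotin by the standard Affymetrix procedure, per the labels. The authors deposited 1 signal intensity per probe set and array, for 45101 probe sets, scaled so that the mean after trimming 2% at each end is 100 on both arrays. The authors also deposited a log2 ratio per probe set to 1 decimal, whose sign is positive for higher signals under the Fbxl10 label. It followed the log2 difference of the signals (Spearman correlation 0.899 across probe sets, which are not replicates). The summarisation software is not given in the sources used here. A further deposited table held the same intensities, and 0 values differed.

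The intensities as deposited were turned into log2 differences with Python 3.11.15, pandas 2.3.3 and numpy 2.4.6. The 4 probe sets where a signal was 0 have none. A probe set was detected where its higher signal reached 19.4. A fold over a signal under 19.4 is given over 19.4 as "at least". Symbols were updated through RefSeq synonyms of GRCm38.p6, which matched 31550 of 33957 probe sets with 1 symbol. 282 with several symbols and 10798 with none were left out. The median signal was 17.6 on the empty vector array and 21.3 on the other, and 48.4% and 51.7% of probe sets reached 19.4. Promoters and their CG counts come from RefSeq windows of 250 bases before to 50 after each start.

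The 10 members, the 8 lists of 90 genes and the alternatives were chosen with earlier results of these data known. The text names every member, up to 2 genes at each end of a list, those past 2-fold, Kdm2a and the targets. A gene that this rule takes is not reported here. The 11 alternatives were median centring, quantile normalization, spike-in centring (18 probe sets), removal of the brightness trend by lowess (span 0.3), detection on both arrays, no detection filter, a signal of at least 100, dim signals raised to 19.4, the median over probe sets, the authors' ratio and the second table.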

Additional observations from a re-analysis of the deposited data

How the results depend on the processing

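Under all 11 alternatives 1 member (Bcor) was at least 2-fold higher and 0 were lower, and Fbxl10 was below 0, from -0.63 to -0.34. Several of these could not change a member's value, so they are no checks of it. The detection settings and the minimum signal only keep or drop a gene. Raising dim signals left every member's brightest probe set as it was, and the second table held the same intensities. Median and spike-in centring lower every value, so none below 0 could rise above it there. No member moved by more than the SD of 0.302 between probe sets of 1 gene. Median and spike-in centring shift every gene by 0.113 and 0.221, so they could not exceed it. This SD says nothing of how cultures differ. Fbxl10, Yaf2 and Skp1 were below 0 and Bcor and Bcorl1 above 0 wherever they had a value, whereas Pcgf1, Rnf2, Rybp and Usp7 changed sign with the scaling. A minimum signal of 100 left 7 members, without Bcorl1 and Pcgf1. Over all detected genes the counts at 2-fold, 1104 higher and 604 lower as deposited, were 757 and 955 with spike-in centring, 704 and 789 with the brightness trend removed, 645 and 439 with detection on both arrays, 3278 and 1993 with no detection filter and 485 and 387 with a signal of at least 100. In the related lists, 14 counts past 2-fold changed by over 1.5 times, or from or to 0, under an alternative, each by 1 or 2 genes. Over all detected genes, median centring (910 and 738) and quantile normalization (875 and 727) left more genes higher than lower, as did the changed detection settings. Spike-in centring and removal of the brightness trend left more lower. The balance of higher and lower genes therefore depends on which scaling is used, and the cause was not tested. No paired analysis was possible because each group has 1 array, and no array could be left out.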
